A study of Drosophila melanogaster with 3 samples.

Results

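The 9 genes described here carry out or restrain programmed cell death in Drosophila melanogaster: rpr, hid, grim, skl, Diap1, Dronc, Dark, Drice and Dcp-1. They were chosen by name, and all 9 were found in the Ensembl annotation, among 13945 protein-coding genes on the chromosome arms. Binding of the zinc finger protein Plzf, the product of CG6792, was mapped by chromatin immunoprecipitation and sequencing (ChIP-seq). A bound region was assigned to a gene when its summit lay inside the gene or within 5000 bp of either end, and a region in reach of several genes was assigned to each of them. In all, 57 of the 30000 regions of the pooled list were assigned to these genes. They include 11 of the 7096 IDR peaks, the regions that the authors selected by the irreproducible discovery rate, a measure of how well replicates rank the same regions.

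The material was whole prepupae, both sexes together and of unknown age, from a transgenic line that stably expressed Plzf with a green fluorescent protein (GFP) tag at its C terminus. The labels describe an anti-GFP immunoprecipitation in their description, while their antibody entry names CG6792. There was 1 group of 3 biological replicates, all carrying the tagged protein, and no second genotype, treatment or time, so no contrast between conditions and no test could be made. Every tissue of the animal contributed chromatin, so binding in few cells and weak binding in many cannot be told apart.

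Cell death in the fly runs through a short chain of proteins. The IAP antagonists Rpr, Hid, Grim and Skl bind the inhibitor Diap1 and free the caspases that it holds in check. Dronc, the initiator caspase, is activated on the adaptor Dark and then cleaves the effector caspases Drice and Dcp-1. At metamorphosis, pulses of the steroid hormone ecdysone trigger the removal of larval midgut and salivary glands, with rpr and hid among the genes that are induced.

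The sequences at the summits show what the bound sites of these genes, and some sites further upstream of hid, look like. Each line gives 101 bases of the dm6 assembly centred on a summit, read 5′ to 3′ on the strand of the gene, from the RefSeq genome. Capitals mark exact matches to the words searched, which in these lines are all TATAAA or its reverse complement TTTATA. The hid and rpr lines and the first Diap1 line are the strongest sites of those genes. The second Diap1 line, of pooled signal 169, is not the second strongest Diap1 peak, which had 172. It shows both orientations of the word side by side. The lines at 5030 and 50377 bp upstream of hid are strong sites of the gene's long upstream interval.
hid promoter, chr3L:18185926-18186026, minus strand: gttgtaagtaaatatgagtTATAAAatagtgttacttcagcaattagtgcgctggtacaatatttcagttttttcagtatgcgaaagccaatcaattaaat
5030 bp upstream of hid, chr3L:18190621-18190721, minus strand: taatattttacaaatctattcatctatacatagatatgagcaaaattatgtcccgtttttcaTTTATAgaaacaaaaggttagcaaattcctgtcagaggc
50377 bp upstream of hid, chr3L:18235968-18236068, minus strand: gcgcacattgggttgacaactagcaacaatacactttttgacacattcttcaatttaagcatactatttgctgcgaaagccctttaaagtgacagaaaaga
rpr upstream, chr3L:18402687-18402787, minus strand: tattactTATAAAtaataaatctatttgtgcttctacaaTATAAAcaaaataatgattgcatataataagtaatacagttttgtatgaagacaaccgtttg
Diap1 intron, strongest peak, chr3L:16046135-16046235, minus strand: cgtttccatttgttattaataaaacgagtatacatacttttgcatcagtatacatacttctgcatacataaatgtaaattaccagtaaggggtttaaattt
Diap1 intron, second site, chr3L:16043080-16043180, minus strand: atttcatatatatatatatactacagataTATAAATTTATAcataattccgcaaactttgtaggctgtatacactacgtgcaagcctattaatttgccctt
downstream of Dronc, chr3L:9972605-9972705, plus strand: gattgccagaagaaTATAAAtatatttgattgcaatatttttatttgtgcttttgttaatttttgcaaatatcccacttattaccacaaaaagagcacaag
A and T made up 78.2% of the rpr window, 70.3% of the hid promoter window and 72.3% of both Diap1 windows. The longest uninterrupted run of A and T was 15 bases in the rpr window and 10 bases in the hid promoter window. The strongest Diap1 site and the site 50377 bp upstream of hid held none of the words searched.

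Of the 9 genes, 6 had at least 1 IDR peak: hid, Diap1, Dark, rpr, Dcp-1 and Dronc. Over all protein-coding genes the share with an IDR peak under the same rule was 52%, so the count for the cell death genes lay near the background. The pooled signal is the value that the authors' caller gave each region. By pooled signal the strongest region of hid stood first among the 9 genes at 605 and that of Diap1 next at 380.1. Dark followed at 249.9, then rpr at 137, Dcp-1 at 128, Dronc at 81.6, Drice at 56.0 and grim at 17.9, and skl had no pooled region. Only 6.22% of protein-coding genes had a region as strong as that of hid or stronger, and 13.0% one as strong as that of Diap1. The corresponding shares were 21.8% for Dark, 37.5% for rpr, 39.3% for Dcp-1, 51.3% for Dronc, 60.8% for Drice and 78.0% for grim. The weakest IDR peak had a signal of 79.6, so Dronc stood just inside the selection and Drice below it.

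**Figure D1:**
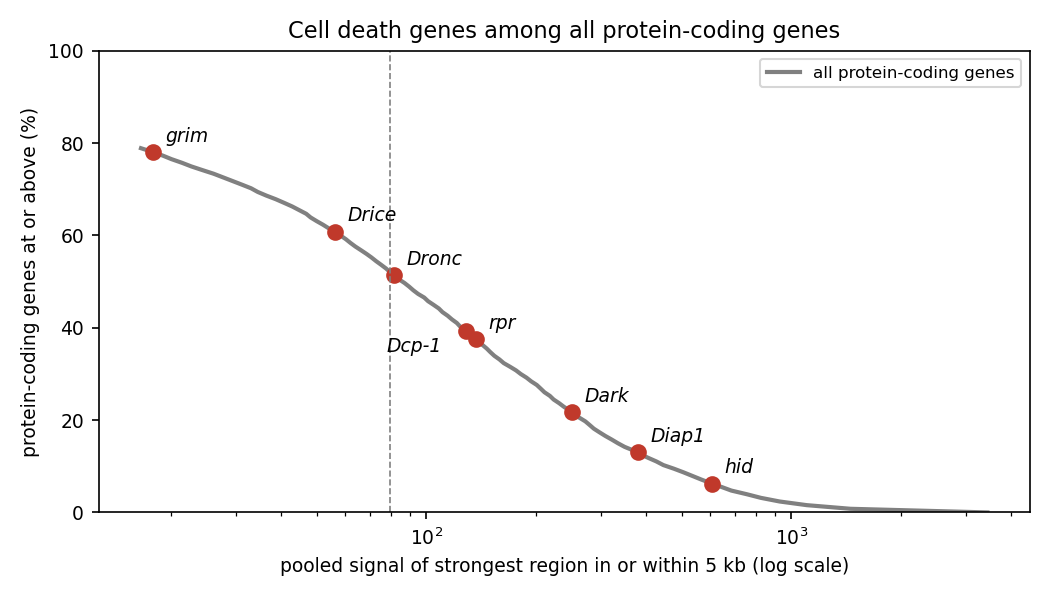
The horizontal axis is the pooled signal of the strongest region in or within 5 kb of a gene (log scale), and the vertical axis the percentage of all 13945 protein-coding genes that reach it. The grey line is all protein-coding genes, red points are 8 of the cell death genes, skl having no region, and the dashed line is the weakest IDR peak at 79.6; hid lies at 6.22% and grim at 78.0%.

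Signals are on the scale of their own list, so the replicates were compared by rank, where 1 is the strongest of a list. A region was called strong in a replicate when it was among the 7096 of highest signal there. Replicates 1 and 3 each had a strong region at 7 of the 9 genes, where the background was 53.6% and 54.2% of protein-coding genes. Replicate 2 had one at 5 of 9, against 51.4%. The genes missing from replicate 2 but present in the other two lists were Dronc and Drice, and grim and skl had no strong region in any replicate. Ranks of hid, rpr and Diap1 kept close together across the lists, while those of Dronc and Drice were far lower in replicate 2 than in replicates 1 and 3.

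**Figure D2:**
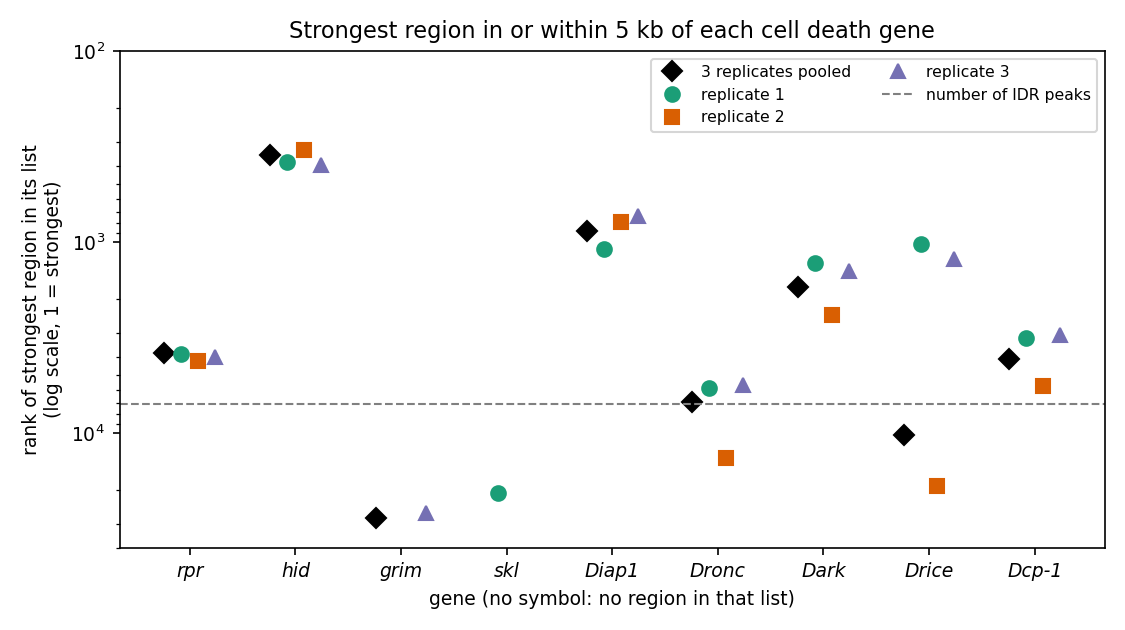
The vertical axis is the rank of the strongest region of each gene in the pooled list (black diamonds) and in replicates 1 to 3 (coloured symbols), on an inverted log scale, and the dashed line marks rank 7096, the number of IDR peaks. The 4 symbols lie close together for hid (ranks 331 to 395) and far apart for Drice. For grim, Drice and Dcp-1 the strongest region is not the same one in every list that holds one.

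The IAP antagonist hid (FBgn0003997; dm6 chr3L:18167745-18185641, minus strand), also known as Wrinkled, had its IDR peak at its own promoter. The summit lay 335 bp upstream of the only annotated transcription start site (TSS), in a region at chr3L:18185753-18186167 that no other protein-coding gene reached. Its signal was 172 in replicate 1, 271 in replicate 2 and 163 in replicate 3, at ranks 382, 331 and 395, a mean rank of 369 ± 33.8 (SD, n = 3). The 3 replicates thus placed it within a narrow band near the top of their lists, and in the pooled list it ranked 353. The other 11 pooled regions of hid were between 19.4 and 52.6 in signal, all far below the promoter peak. They comprised 5 in introns, 4 upstream and 2 downstream, and 3 of the 11 had no counterpart in any replicate list. Among the 9 genes hid alone had an IDR peak within 500 bp of its own TSS, a feature of 19.8% of protein-coding genes.

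The IAP antagonist rpr (FBgn0011706; chr3L:18397535-18398435, minus strand) is a short gene of 901 bp, and all 3 of its pooled regions lay upstream. Its IDR peak at chr3L:18402517-18402956 was intergenic, 4302 bp upstream of the TSS, with rpr as the gene of the nearest protein-coding TSS. The signal was 41.3, 55.9 and 37.3 in replicates 1, 2 and 3, at ranks 3860, 4184 and 4019. The 3 ranks were again close, with a mean of 4021 ± 162 (SD, n = 3), about the middle of the strong regions. At the rpr promoter itself the pooled list held no region. Replicates 1 and 3 each listed 1 weak region within 500 bp of the rpr TSS, at ranks 9167 and 12573, and replicate 2 listed none.

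The antagonists grim (FBgn0015946; chr3L:18302719-18304417, minus strand) and skl (FBgn0036786; chr3L:18438561-18439942, minus strand) had no IDR peak. For grim the pooled list held 1 region, 115 bp upstream of the TSS, with a signal of 17.9 at rank 28063 of 30000. No replicate listed a region at that place. Replicate 3 had 1 other region near grim, at rank 26437, and replicates 1 and 2 had none. For skl the pooled list and replicates 2 and 3 held nothing, and replicate 1 held 2 weak regions, the stronger with a signal of 9.05 at rank 20683. Any pooled region was found for 78.9% of protein-coding genes and for 8 of the 9 cell death genes.

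The 4 antagonists form the reaper complex, a stretch of 272 kb of 3L (chr3L:18167745-18439942) in which the genes lie on the same strand in the order hid, grim, rpr, skl. The IDR peaks were not spread evenly over it. Between hid and grim, a distance of 117077 bp, there were 20 IDR peaks, or 1.71 per 10 kb. Between grim and rpr, over 93117 bp, there was none, and between rpr and skl, over 40125 bp, there were 3. The whole arm had 0.548 IDR peaks per 10 kb. Each replicate showed the same order: its strong regions numbered 22, 22 and 20 between hid and grim in replicates 1, 2 and 3 (mean 21.3 ± 1.15, SD, n = 3), then 0, 0 and 1 between grim and rpr, and 3, 2 and 4 between rpr and skl. All 3 replicates held 16 of the 20 peaks between hid and grim among their strong regions, against 62.4% of all IDR peaks. The replicates also went into the pooled list, so this count is no independent measure of agreement.

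The strongest site of the complex in the pooled list was far from any of the 4 genes. It lay at chr3L:18235812-18236242, 50377 bp upstream of the hid TSS, with a pooled signal of 895 at rank 126. Its ranks in replicates 1, 2 and 3 were 110, 142 and 160, all ahead of the hid promoter in the same list. The second strongest, of signal 819, lay 9560 bp upstream of hid and ranked 248, 135 and 156 in the replicates, so that in replicates 2 and 3 it stood slightly ahead of the site at 50377 bp. The third, of signal 684, lay 5030 bp upstream, just beyond the 5000 bp limit, and ranked 312, 228 and 295. A peak of signal 80.2 lay just beyond the limit for rpr, at 5007 bp. The interval between hid and grim also holds the protein-coding genes CG5103, CheA75a, CG7320 and CG13700 and 6 annotated features that code for no protein. The nearest protein-coding TSS was that of CheA75a for the strongest site and of CG7320 for the second. Noncoding TSSs were nearer, that of lncRNA:CR45937 at 1258 bp from the strongest site and that of lncRNA:CR45234 at 971 bp from the second. Between grim and rpr the highest of 12 pooled regions reached 69.4, below the weakest IDR peak.

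**Figure D3:**
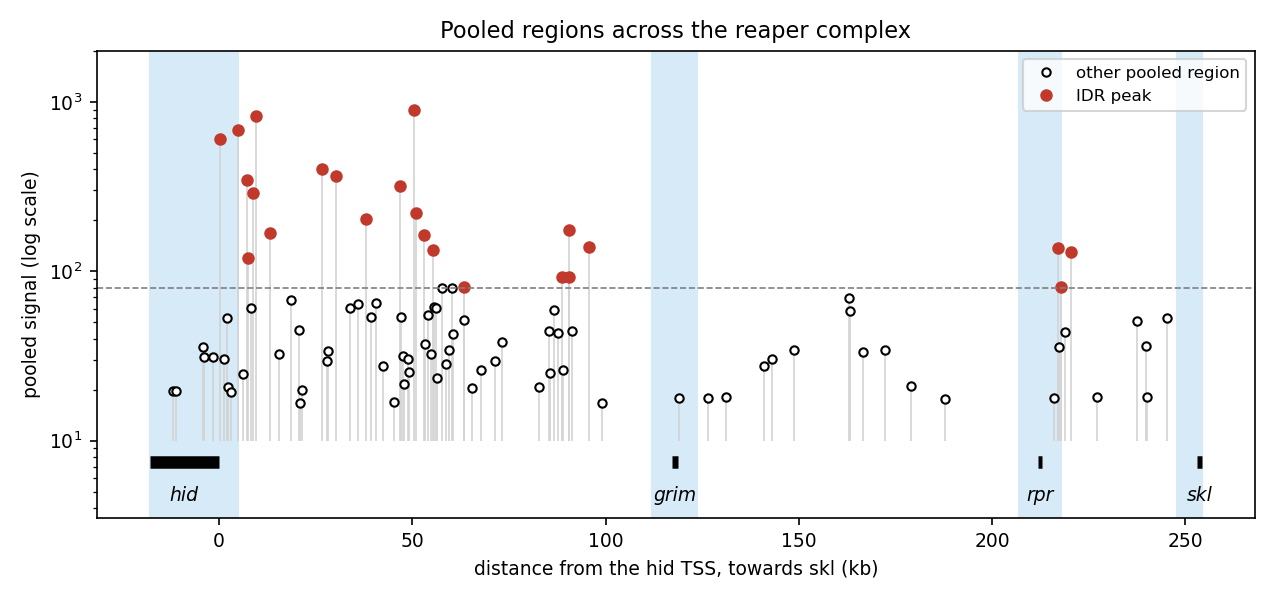
Each point is a pooled region of the reaper complex, placed by its distance from the hid TSS in kb (horizontal axis) and its pooled signal (vertical axis, log scale); red points are IDR peaks, open points other pooled regions, and the dashed line the weakest IDR peak. Black bars are the 4 antagonist genes and blue bands their 5 kb reach within the complex: 20 IDR peaks crowd the interval between hid and grim, and none lies between grim and rpr.

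Diap1 (FBgn0260635; chr3L:16038410-16051034, minus strand), also called thread, encodes the inhibitor that the antagonists bind, and it carried the most sites. It had 24 of the 57 pooled regions and 6 of the 11 IDR peaks, and 5 of these 6 lay in its introns. Diap1 is a gene of 12625 bp with 5 annotated TSSs, so its searched window was longer than those of all other members except hid. Per 10 kb of searched sequence it had 2.65 IDR peaks, against 0.581 for all protein-coding genes and 0.434 for the other 8 genes together. At least 2 IDR peaks were found for 27.1% of protein-coding genes and, of the 9, for Diap1 alone.

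The strongest Diap1 peak (chr3L:16045969-16046329) lay 661 bp downstream of the nearest Diap1 TSS. Its signal was 99.9, 175 and 117 in replicates 1, 2 and 3, at ranks 1095, 790 and 734, so each replicate placed it among its strongest regions. A neighbour at chr3L:16045443-16045556, of pooled signal 145, differed between replicates: it ranked 3351 in replicate 1 and 29046 in replicate 3 and had no match in replicate 2. A pair of narrow peaks at chr3L:16043058-16043169 and chr3L:16043263-16043373, of pooled signal 169 and 117, lay 560 and 765 bp upstream of a Diap1 TSS within the gene. Both were strong in all 3 replicates, at ranks 3397, 3858 and 2300 for the first and 4419, 6391 and 2740 for the second. The peak at chr3L:16048234-16048419, of pooled signal 172, lay 1460 bp upstream of a Diap1 TSS and ranked 2385, 4446 and 2182. The sixth peak, at chr3L:16036936-16037375 and of signal 151, lay 1254 bp beyond the 3′ end of Diap1, in a coding exon of CG5895, and ranked 3818, 3095 and 3839. None of the 6 lay within 500 bp of a Diap1 TSS. The 18 other pooled regions of Diap1 reached up to 77.6, just below the weakest IDR peak, and that region lay in an intron of the neighbouring gene Mbs.

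**Figure D4:**
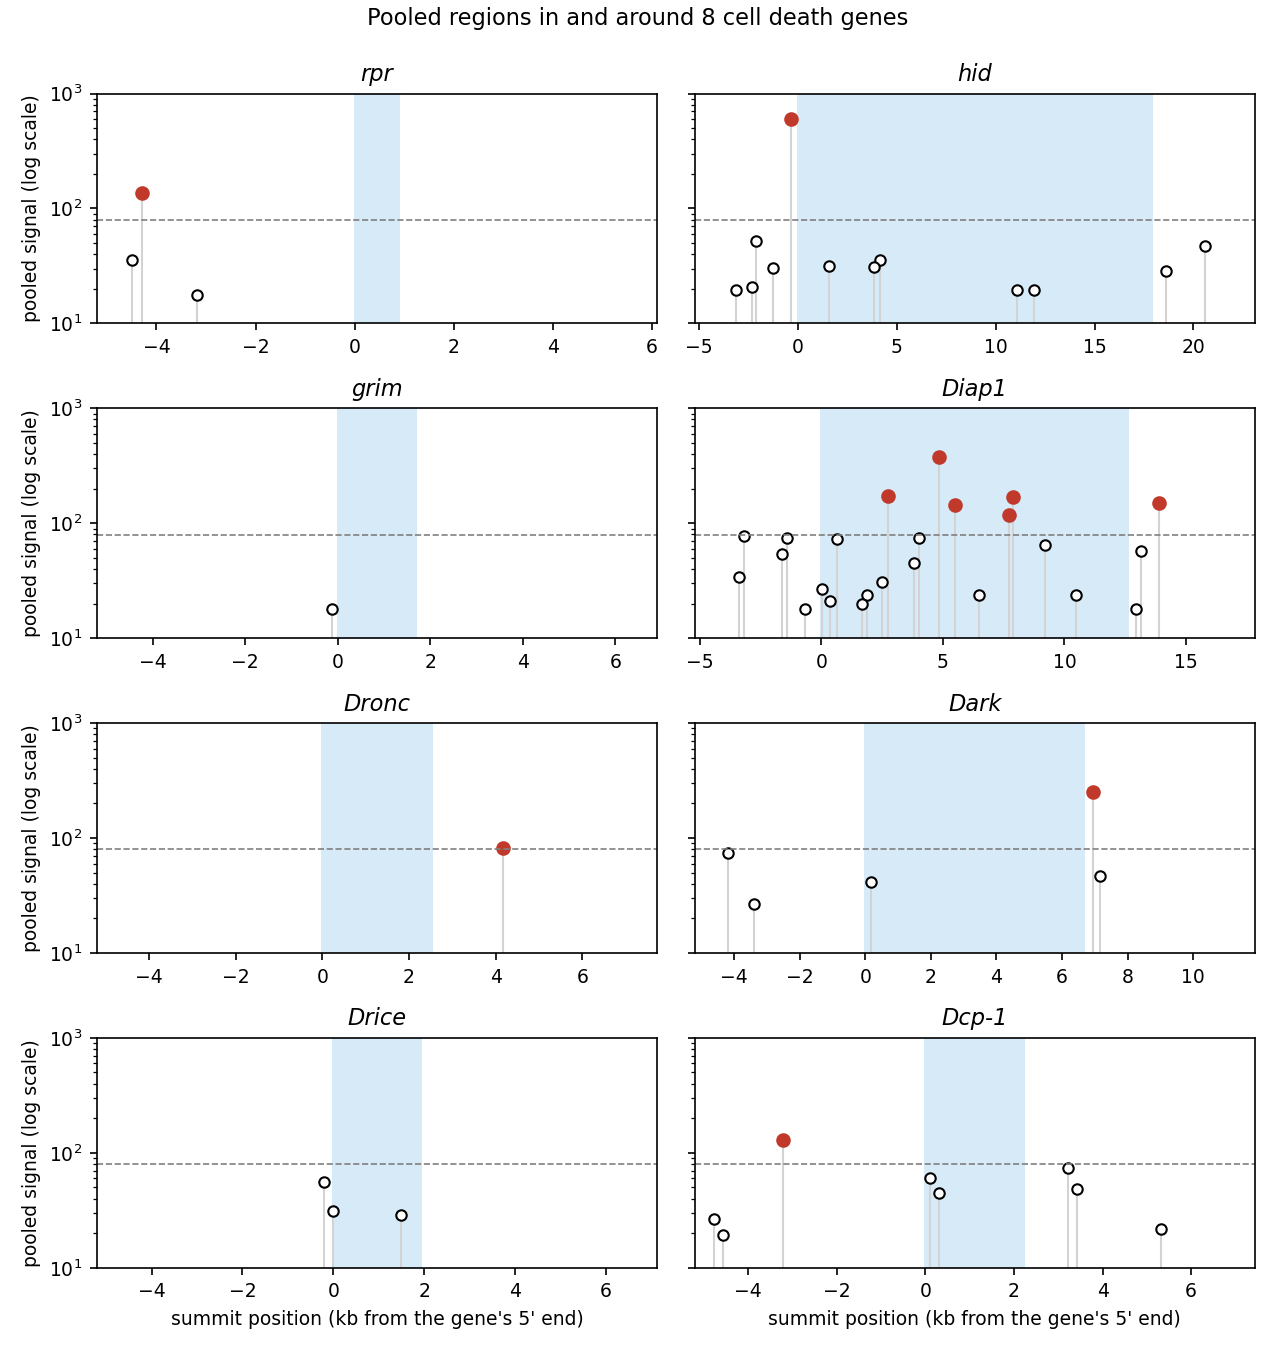
For 8 cell death genes, the horizontal axis is the position of each summit in kb from the 5′ end of the gene and the vertical axis its pooled signal (log scale); blue is the gene body, red points are IDR peaks, open points other pooled regions, and the dashed line is the weakest IDR peak. The peak of hid sits at its promoter and 5 peaks of Diap1 sit inside the gene, while those of rpr, Dronc, Dark and Dcp-1 lie outside the gene body.

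The IDR peaks of the initiator caspase and its adaptor lay at promoters of other genes. For Dronc (FBgn0026404; chr3L:9968479-9971002, plus strand) the single pooled region was the IDR peak at chr3L:9972435-9972874, 1653 bp downstream of the gene and 101 bp upstream of the TSS of vnc. Its signal was 29.5, 20.4 and 28.0 in replicates 1, 2 and 3, at ranks 5806, 13521 and 5617, so it was strong in replicates 1 and 3 and not in replicate 2. The pooled list held no region at the Dronc promoter. For Dark (FBgn0263864; chr2R:17020027-17026703, plus strand) the IDR peak at chr2R:17026753-17027192 lay 270 bp downstream of the gene and 217 bp upstream of the TSS of RhoGEF2. Its signal was 91.0, 85.3 and 79.8, at ranks 1289, 2418 and 1416, which was strong in each replicate. The same summit lay 20 bp from the TSS of the antisense RNA asRNA:CR44390. Near the Dark TSS, a pooled region of signal 41.6 lay 166 bp downstream. Replicate 3 listed a weak region 146 bp downstream of the TSS, at rank 21098, and replicate 2 a strong one 290 bp downstream, at rank 7060, while replicate 1 listed none within 500 bp.

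Of the effector caspases, Dcp-1 had an IDR peak and Drice had none. The Dcp-1 peak (gene FBgn0010501; chr2R:23551313-23553547, plus strand) at chr2R:23547879-23548318 lay 3214 bp upstream of Dcp-1 and 52 bp inside wmd, at the promoter of that gene. Its signal was 48.3, 27.9 and 46.3 in replicates 1, 2 and 3, at ranks 3188, 9780 and 3066, again strong in replicates 1 and 3 only. At the Dcp-1 TSS a pooled region of signal 60.8 lay 97 bp downstream and a second of signal 45.1 lay 304 bp downstream, both below the IDR selection. All 3 replicates listed a region within 500 bp of this TSS. The strongest of them ranked 9873 in replicate 1, 5680 in replicate 2 and 11568 in replicate 3, and so was strong in replicate 2 only. The peaks near Dronc and Dcp-1 were thus both below the strong regions in replicate 2.

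Drice (FBgn0019972; chr3R:29799658-29801584, plus strand) had 3 pooled regions, the strongest with a signal of 56.0, placed 212 bp upstream of its TSS and 92 bp upstream of that of the neighbour Rnb. Its signal was 17.9, 14.1 and 17.6 in replicates 1, 2 and 3, at ranks 9860, 18997 and 9319, strong in none. The lists disagreed about another site near Drice. Replicate 1 held a region of signal 104 at rank 1031, and replicate 3 one of signal 86.6 at rank 1236, with summits 7 bp apart and 1482 and 1475 bp downstream of Drice, at the promoter of Etfb. Neither replicate 2 nor the pooled list had a region there: the nearest pooled summit was 1924 bp away from that of replicate 1, and the nearest of replicate 2 was 1787 bp away. Of the strong regions of replicate 1, 1.72% had no overlapping pooled region, and of replicate 3, 1.94%.

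Counted only where no other protein-coding gene had a nearer TSS, 7 of the 11 IDR peaks remained, and they belonged to rpr, hid and Diap1. These 3 of 9 genes stood beside 23.6% of all protein-coding genes. The peaks that fell away were those at the promoters of vnc, RhoGEF2 and wmd and the peak in CG5895. All 3 replicates held 8 of the 11 IDR peaks among their strong regions, with summits within 100 bp, against 62.4% of all IDR peaks. Another 2, those of Dronc and Dcp-1, were held by 2 replicates, and the Diap1 peak at chr3L:16045443-16045556 by 1. Because the replicates also went into the pooled list, these counts describe support for each peak and are no independent measure of agreement.

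The 11 peaks had their summits in AT-rich sequence. The GC content within 50 bp of the summit averaged 29.2% ± 5.48 (SD, n = 11 peaks, which share genes and libraries), beside 33.3% at all IDR peaks and 40.0% at the other pooled regions. The lowest was the rpr peak at 21.8% and the highest the Diap1 peak at chr3L:16048234-16048419 at 41.6%. In windows centred 300 bp to each side the mean was 46.1%, and 10 of the 11 summits had a lower GC content than both of their flanks. The flanks of all IDR peaks averaged 45.1%, and 71.2% of all IDR summits lay below both flanks, so the dip is general to the IDR peaks. At the summits that the replicates themselves gave for these peaks, the mean was 31.3%, 29.1% and 31.7% in replicates 1, 2 and 3.

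**Figure D5:**
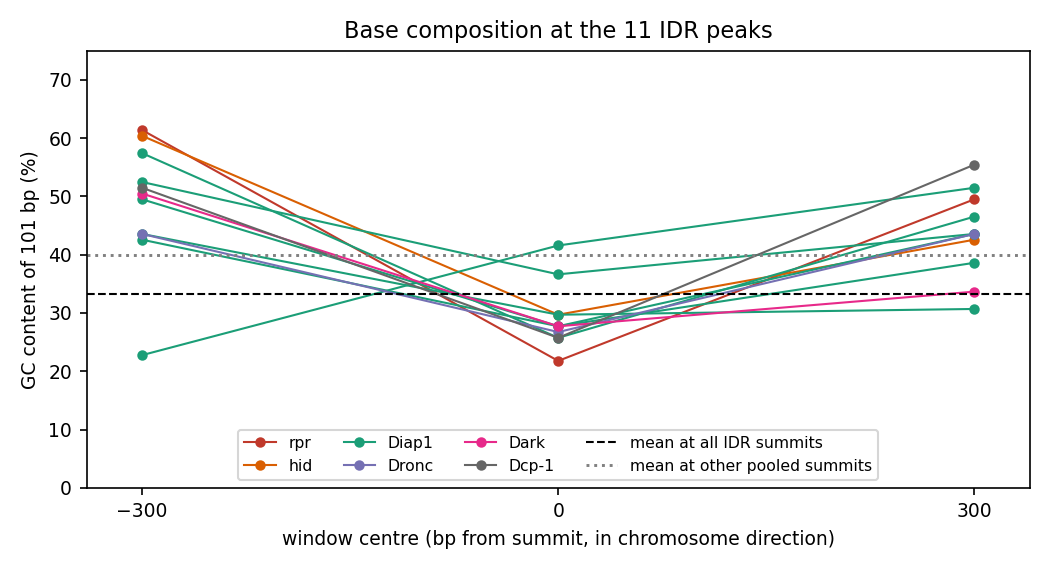
The vertical axis is the GC content of 101 bp windows and the horizontal axis their centre relative to the summit in bp, 1 line for each of the 11 IDR peaks, coloured by gene; the dashed and dotted lines are the mean at all IDR summits (33.3%) and at the other pooled summits (40.0%). For 10 of the 11 peaks the line dips at the summit.

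The word TATAAA, looked for on either strand in the 101 bases around each summit, was present at 9 of the 11 peaks. Each of the 6 genes had at least 1 peak with it, and the peaks without it were those of Diap1, its strongest among them. It was present at 22.1% of all IDR peaks and 14.5% of the other pooled regions. Base composition moves with this count: among IDR peaks with a summit GC content of 30% or less, 33.6% held the word, and 9 of the 11 peaks were in that range, 7 of them with the word. Between hid and grim, 6 of the 20 IDR peaks held it, the hid promoter peak among them. The part of base composition in the count for the 11 peaks was not tested, and 6 of the 11 are from 1 gene. Of the other words, 2 were found at the 11 peaks. GAGAG, the word of the GAGA factor, was found at 1 peak against 10.5% of all IDR peaks, and TAATATA at 2 of 11 against 7.91%, or 13.6% of those with a summit GC content of 30% or less. None of the 11 held a GATA word, searched as AGATAA, as AGATAG, as TGATAA and as TGATAG, which 22.7% of all IDR peaks did. None held CGATA, the core word of the insulator protein BEAF-32, found at 12.5%, or the longer word TATCGATA that contains it, found at 0.944%. The homeodomain word TAATTA (9.78%) and the nuclear receptor half-site AGGTCA (2.03%) were not found at the 11 peaks either. Among IDR peaks with a summit GC content of 30% or less, 5.34% held GAGAG, 26.0% a GATA word and 10.1% CGATA. In the same range 0.367% held TATCGATA, 15.7% TAATTA and 1.64% AGGTCA.

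The wider set of genes that act in cell death, clearance and hormone control was counted in the same way. Of 35 other cell death genes, 27 had an IDR peak (77.1%) and 11 had one within 500 bp of a TSS (31.4%). Over all protein-coding genes these shares were 52% and 19.8%. The highest signal, 719.7, was a single region shared by Cyt-c-p and Cyt-c-d, which both encode cytochrome c. The region lay at the promoter of CG31808, and also 402 bp from the TSS of Cyt-c-d. It was followed by 571.5 near morgue, which promotes the loss of Diap1 protein, at the promoter of its neighbour MFS18. No pooled region was found for Bruce, an inhibitor of apoptosis with a ubiquitin-conjugating domain, for Drep3, or for the caspase gene Damm. The median strongest signal over genes with any pooled region was 174.7 for 32 genes of this list, 132.6 for 8 of the 9 genes described here and 127.1 for the 11001 protein-coding genes with one, so the median of the 8 lay near the background.

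Of 25 autophagy genes, which act beside the caspases when larval tissues are removed, 21 had an IDR peak (84%) and 10 had one at a TSS. The shares over all protein-coding genes were 52% and 19.8%. The highest were Atg5, part of the conjugation machinery, at 860.6, the autophagy receptor gene ref(2)P at 536.1 and Atg2 at 494.4, and Atg10 had no pooled region. These 3 regions lay nearer to the TSSs of other genes, namely Dok, CG13082 and CG12093, than to those of the genes listed, though that of Atg2 was only 187 bp from its own TSS. All 10 regulators that act downstream of ecdysone, or with its receptor, had an IDR peak, 8 of them at a TSS, beside the same 52% and 19.8%. Eip75B, which encodes the nuclear receptor E75, stood highest at 1130, followed by the coactivator gene nej at 387.7 and the ETS factor gene Eip74EF at 378.4, whose region lay nearest to the TSS of CycT. These regulators are long genes, with a median span of 55678.5 bp against 2235 bp for the 9 cell death genes, and these counts were not adjusted for gene length.

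The genes closest to hid and Diap1 in the ranks of their strongest region were found over 4 lists, the pooled list and the 3 replicates, as the distance in log2 rank. For hid they were Pax, Gug and TfIIA-S, at distances of 0.14, 0.17 and 0.18. The region of Pax was shared with lectin-37Da, CG13085, Alp12 and lectin-37Db, and that of TfIIA-S with Pli, so those 2 names each stand for a shared region. Gug, for example, ranked 403, 349 and 419 in replicates 1, 2 and 3, beside 382, 331 and 395 for hid. For Diap1 they were twz, SKIP and tbrd-1, at distances of 0.19, 0.23 and 0.23. None shared a region with the gene it resembled, and the pooled list is not independent of the replicates.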

How the data were processed

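ChIP-seq of Plzf-eGFP was deposited as region lists on dm3 and dm6; the dm3 lists were not used. Per the file headers, the authors made 1 list of peaks and background per replicate, 1 for the pooled replicates and 1 of optimal IDR peaks, with a control library in the calling. The signal of a region is the authors' deposited value from their caller, on the scale of its own list. Neither aligner nor caller, nor the cut-off applied in IDR, is stated (not given in the sources used here), and the lists carry no sequencing depth. The 7096 IDR peaks had the highest signals of the pooled list. Replicate 2 has 6 regions off the chromosome arms, which were left out.

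Summits were assigned to genes of Ensembl release 115 (5000 bp) and to the nearest protein-coding TSS (500 bp for promoter), and replicate regions were matched by summits within 100 bp, with Python 3.11.15, NumPy 2.4.6, pandas 2.3.3 and matplotlib 3.10.9. Sequence was read from RefSeq's dm6 genome. The assignment was tested on simulated data. With 1 group no test was made. The genes named were the 9 members, the 3 genes nearest in rank to the 2 members of highest signal, the 3 of highest signal in each list and those without a region, and the genes with the TSS nearest to an assigned IDR peak. Vps34 and Ced-6 were matched as Pi3K59F and ced-6. The members, lists and motifs were chosen with earlier results of these data known. Alternatives varied the distance, the assignment, the signal threshold, the matching rule, the windows and the replicates.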

Additional observations from a re-analysis of the deposited data

How the results depend on the processing

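The count of cell death genes with an IDR peak, 6 of 9, depended on the reach. It was 1 inside the gene only, 3 within 1000 bp, 3 with IDR peaks of above-median signal only and 3 with the nearest TSS only, where 14.2%, 30.9%, 35.8% and 23.6% of protein-coding genes had one. With both other replicates required to hold the peak, it was 4, 6 and 4 without replicates 1, 2 and 3. Under these settings 43.2%, 44.9% and 43.5% of protein-coding genes had one. The 11 assigned peaks became 5 inside the gene, 7 within 1000 bp, 18 within 10000 bp, 7 of above-median signal, 7 by the nearest TSS, and 8 to 10 without 1 replicate. By the main rule all 3 replicates held 8 of the 11 peaks, against 62.4% of all IDR peaks. With a reciprocal overlap of 50% they held 4 of the 11, against 52.9%. The count thus lay above the share over all IDR peaks under the main rule and below it under the other. Of the genes with an IDR peak at a TSS there were 0 within 250 bp and 2 within 1000 bp, instead of 1. Mean GC content at the summits was 27.6% with 25 bp and 32.2% with 100 bp to each side, instead of 29.2%. Both moved by more than 1.39, the SD over the means of the 3 replicates. An alternative added after seeing the data left none of the 3 peaks between rpr and skl at above-median signal, a count of 0, and 14 of the 20 between hid and grim; leaving out each replicate gave 2 to 3 and 16 to 18. The 28 other values for these results, those without 1 replicate included, stayed within 1.5 times the reported count. Of the comparison lists, the 27 of 35 other cell death genes with an IDR peak became 9 inside the gene, 15 within 1000 bp, 17 within 2000 bp and 10 by the nearest TSS. Under these settings 14.2%, 30.9%, 37.4% and 23.6% of all protein-coding genes had one. The 21 of 25 autophagy genes became 6 inside the gene and 11 by the nearest TSS, beside the same 14.2% and 23.6%. The region lists give no depth. No paired analysis was possible because all samples form 1 group.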
